A study of Mus musculus with 52 samples.

Results

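Accessibility was examined at the promoters of 10 genes that encode regulators or markers of the trophoblast, namely Cdx2, Elf5, Tfap2c, Tfap2a, Gata2, Gata3, Hand1, Tead4, Ascl2 and Krt8. Promoters were taken by gene symbol from the tables of calibrated ATAC-seq (cATAC-seq) signal, with no threshold on a measured value. The genes were, however, chosen with earlier results of these data known. Of the 10 genes, 9 had a promoter, and Elf5 and Tfap2a had 2 each, which gave 11 promoters of the 20633 measured. Krt8 is not analysed here. Each promoter is an interval of 400 bp in the mm10 build, and its value is the number of mouse reads in the interval divided by a size factor from Drosophila SG4 cells that were mixed with the mouse cells before the assay (calibrated reads).

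The cells were mouse embryonic stem cells (mESCs) of 4 conditional lines, grown on gelatine in serum with leukaemia inhibitory factor, and all lines carry a CRE recombinase that tamoxifen activates (CreERT2). In Kdm2a/b-JmjC fl/fl cells, tamoxifen removes the exons that encode the JmjC demethylase domain from both Kdm2a and Kdm2b, and with them the long forms of the proteins. In the Kdm2a/b-CXXC line the floxed part of both genes encodes the ZF-CxxC domain, which binds unmethylated CpG. The Kdm2a-CXXC and Kdm2b-CXXC lines lose that domain from the single gene in their name. Each line was measured untreated and after 800 nM 4-hydroxytamoxifen for 96 h, in 3 libraries per group and in 4 per group for Kdm2a/b-CXXC, 26 in all. The Kdm2a/b-CXXC line was made by editing Kdm2b-CXXC cells, and the Kdm2a-CXXC line by editing cells that carried only the recombinase. The Kdm2a/b-JmjC cells were derived from mice that carried the floxed genes. Each genotype was represented by 1 line, so genotype, line, derivation and experiment cannot be told apart between lines. The deleted exons lie outside the promoter intervals, so these values cannot check the deletions.

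The trophoblast is the outer lineage of the early embryo and gives rise to the placenta, whereas mESCs represent the inner pluripotent cells. TEAD4 responds to the Hippo pathway and acts upstream of CDX2 and GATA3. CDX2, ELF5, the AP-2 factors TFAP2A and TFAP2C, and the GATA factors form the regulatory network of the trophectoderm and trophoblast stem cells. HAND1 acts in trophoblast giant cells and ASCL2 in the spongiotrophoblast. In mESCs most of these genes are silent or lowly expressed, and many have CpG island promoters with Polycomb marks. The Elf5 promoter is known for its DNA methylation, which sets the lineages apart.

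The libraries held between 1.49 and 3.03 M promoter reads, and the median promoter held 58 to 108 reads. The 11 promoters held between 5 and 174 reads in a library, so counting error was wide at the lowest of them. Size factors lay between 0.718 and 1.41, and calibrated totals varied most in Kdm2b-CXXC, with 2.27 ± 0.621 M calibrated reads untreated and 2.43 ± 0.666 M after tamoxifen (SD, n = 3 each). Naive pluripotency genes, which mark mESCs, had their median promoter at a percentile of 82.2 among promoters in the untreated libraries. The 7 promoters of the listed mESC markers had a median of 58.9, from 87.8 at Zfp42 to 16.7 at Esrrb, and the lists for primitive endoderm, early mesoderm and fibroblasts medians of 42.5, 39.2 and 34.5. No test was made of the cells' identity. Reads come from many cells, so fewer cells with an open promoter and less opening in each cell cannot be told apart.

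The start of transcription that RefSeq annotates lay within 1 bp of the centre of the interval for 10 of the 11 promoters, and 28 bp from it for the upstream promoter of Tfap2a. Promoters with a GC fraction of 0.5 or more, and CpG at 0.6 or more of the number their base composition predicts, were called CpG-rich. Of the 11, 7 were CpG-rich, against 54.6% of all promoters. These 7 were the promoters of Cdx2, Tfap2c, Gata2, Gata3, Tead4 and Ascl2 and the upstream promoter of Tfap2a, with 22 to 43 CpG each. Neither Elf5 promoter was CpG-rich. The upstream one held 3 CpG, an observed to expected ratio of 0.0903, and the downstream one 13, a ratio of 0.446. Hand1 had a ratio of 0.403. The downstream promoter of Tfap2a fell outside the class by its GC content of 47.8% alone, since its CpG ratio was 1.29.

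The 200 bases that lead up to the centre are shown, from the RefSeq GRCm38.p6 sequence (the same build as mm10), for the promoters on which the results turn and for both members of each pair, since the pairs differ in CpG. All are written 5′ to 3′ on the gene's strand, with CpG in capitals. The intervals are chr5:147307050-147307449 for Cdx2 (minus strand) and chr6:128300614-128301013 for Tead4 (minus strand). Those of Elf5 (plus strand) are chr2:103411898-103412297 upstream and chr2:103423868-103424267 downstream, 11970 bp apart, and those of Tfap2a (minus strand) are chr13:40733624-40734023 upstream and chr13:40730258-40730657 downstream, 3366 bp apart. The Tfap2a upstream interval also holds 159 bases of an exon of Gm26688, and the Hand1 interval, chr11:57831948-57832347, holds 240 bases of an exon of Gm32915, so their reads cannot be given to one gene alone.
Cdx2: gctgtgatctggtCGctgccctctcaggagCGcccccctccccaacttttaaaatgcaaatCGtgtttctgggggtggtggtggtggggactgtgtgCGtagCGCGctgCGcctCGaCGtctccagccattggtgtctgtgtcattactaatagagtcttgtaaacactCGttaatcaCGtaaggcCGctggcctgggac
Tead4: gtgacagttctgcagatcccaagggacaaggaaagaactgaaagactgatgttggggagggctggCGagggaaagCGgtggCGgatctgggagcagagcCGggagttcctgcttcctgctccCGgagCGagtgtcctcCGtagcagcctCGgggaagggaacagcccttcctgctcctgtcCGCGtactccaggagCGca
Elf5, upstream promoter: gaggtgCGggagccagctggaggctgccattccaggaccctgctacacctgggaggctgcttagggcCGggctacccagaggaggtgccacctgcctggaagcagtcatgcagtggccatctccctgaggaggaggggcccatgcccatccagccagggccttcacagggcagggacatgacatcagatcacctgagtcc
Elf5, downstream promoter: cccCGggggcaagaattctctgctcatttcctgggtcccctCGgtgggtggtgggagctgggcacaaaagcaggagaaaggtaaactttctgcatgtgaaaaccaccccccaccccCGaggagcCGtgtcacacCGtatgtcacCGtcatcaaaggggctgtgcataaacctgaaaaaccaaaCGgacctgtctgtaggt
Tfap2a, upstream promoter: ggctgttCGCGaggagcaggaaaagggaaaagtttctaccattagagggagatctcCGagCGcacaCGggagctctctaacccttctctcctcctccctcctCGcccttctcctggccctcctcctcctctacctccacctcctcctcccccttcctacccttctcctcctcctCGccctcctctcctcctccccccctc
Tfap2a, downstream promoter: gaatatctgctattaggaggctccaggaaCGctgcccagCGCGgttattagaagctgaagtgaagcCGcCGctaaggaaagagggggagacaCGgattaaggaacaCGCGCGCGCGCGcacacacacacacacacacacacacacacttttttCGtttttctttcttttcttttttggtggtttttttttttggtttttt

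The stretch shown held 12 CpG at Cdx2, 11 at Tead4, 2 and 7 at the upstream and downstream promoters of Elf5, and 7 and 13 at those of Tfap2a. The other intervals are chr2:172549393-172549792 for Tfap2c and chr6:88198464-88198863 for Gata2 (both plus strand), and chr2:9878401-9878800 for Gata3 and chr7:142969065-142969464 for Ascl2 (both minus strand). Over the whole 400 bp and on either strand, the letters TATAAA were in 0 of the 11 promoters, against 10.4% of all promoters. The letters GGAATG, read by TEAD factors, were in 3 of 11 (Elf5 upstream, Gata2 and Gata3), against 15.6% of all promoters, and CANNTG, the E-box, in 6 of 11, against 76.2%. These counts describe letters in the interval and nothing more.

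How open these promoters were was asked first in the 13 untreated libraries, by the percentile of each promoter's reads among all promoters of its library. The upstream promoter of Tfap2a, an AP-2 factor of trophoblast and neural crest, stood highest, at a median percentile of 65.4 (range 48.6 to 72.7). Tead4 followed at 57.8 (45.8 to 75.2), and Tfap2c, Gata3, Ascl2, Cdx2 and Gata2 lay close together at 52.3, 51.5, 51.3, 50.4 and 50.2. Hand1 lay at 37.0 (32.3 to 44.4), the downstream promoter of Tfap2a at 30.2 (17.7 to 34.5), and the downstream and upstream promoters of Elf5 at 27.9 (8.74 to 33.2) and 20.8 (9.20 to 32.2). Between neighbours in this order, Gata2 stood above Hand1 and Hand1 above the downstream promoter of Tfap2a in 13 of 13 libraries. Every other pair of neighbours changed places in at least 3 libraries. The order is thus not resolved within those pairs, nor among the 5 promoters from Tfap2c to Gata2. The upstream promoter of Tfap2a stood above Tead4 in 9 of 13 libraries, and Tead4 above Tfap2c in 10. The downstream promoter of Tfap2a stood above that of Elf5 in 9, and the downstream promoter of Elf5 above the upstream one in 10. Promoters had equal length, so no correction for length was needed. Differences in base sequence, which can affect the Tn5 enzyme of the assay and the mapping of reads, were not corrected. Levels of different promoters therefore compare only with that limit.

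**Figure D1:**
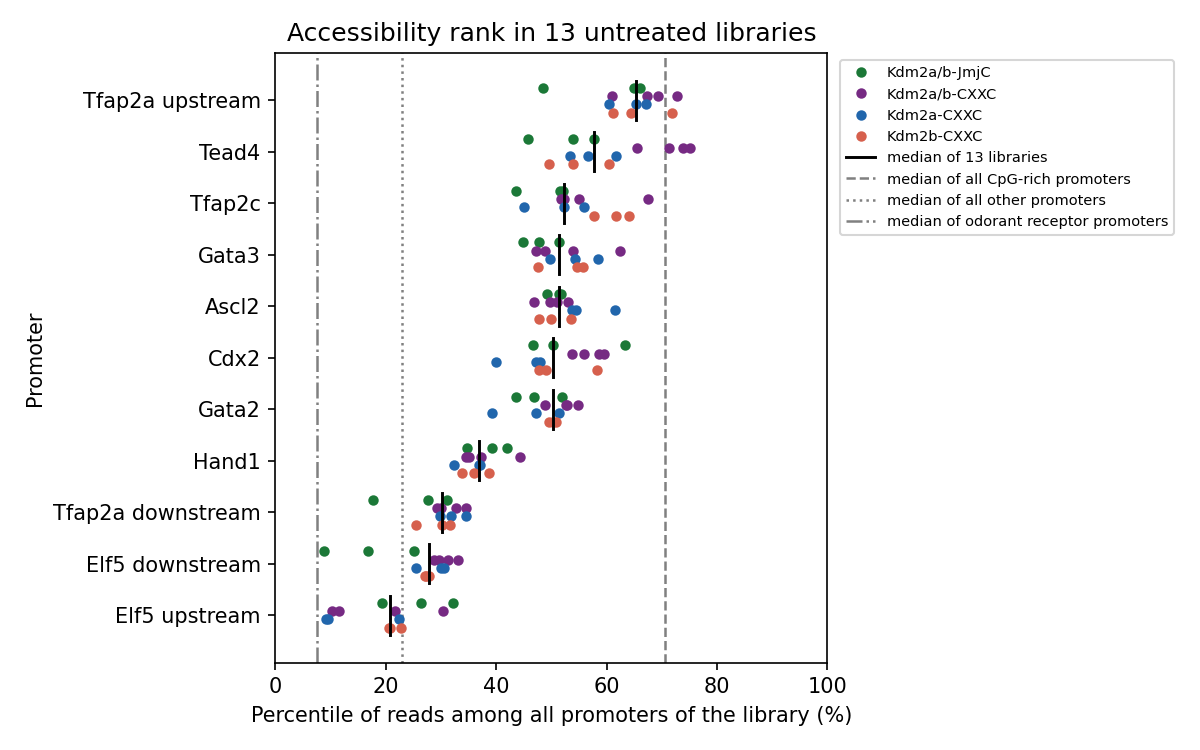
Percentile of the reads of each promoter (vertical axis) among all promoters of its library, in 13 untreated libraries coloured by line, with the median of the 13 as a black bar. The CpG-rich members lay between the median of all CpG-rich promoters at 70.6 and that of all other promoters at 22.9, by their medians. The 2 promoters of Elf5 had the lowest medians, above the median of the odorant receptor promoters at 7.50.

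By their median, the 7 CpG-rich members were less open than CpG-rich promoters at large. Their median percentile was 53.5 over the 13 libraries (50.4 to 59.6), whereas the median of all 11262 CpG-rich promoters lay between 70.3 and 70.9. These ranges did not overlap, but they are over libraries for the same promoters and do not measure the spread between promoters. In single libraries Tead4 reached 75.2 and the upstream promoter of Tfap2a 72.7. The 4 other members had a median percentile of 29.4 (23.5 to 32.9), against 22.9 (22.5 to 23.3) for the 9368 promoters that were not CpG-rich. Odorant receptor promoters, taken as closed chromatin, had a median of 7.50, and the downstream promoter of Elf5 came to 8.74 in 1 Kdm2a/b-JmjC library. These are descriptions of 11 chosen promoters, with no test.

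Elf5 and Tfap2a could each be compared at 2 promoters. In the untreated libraries the upstream promoter of Tfap2a held a median of 121 reads (77 to 174) and the downstream promoter 27 (10 to 37), with no overlap. At Elf5 the downstream promoter held a median of 23 reads (6 to 29) and the upstream promoter 14 (5 to 25), with overlap. In these untreated libraries alone, the order went with the line. The upstream promoter held more reads in all 3 untreated libraries of Kdm2a/b-JmjC (25, 12 and 18, against 15, 6 and 10 downstream). The downstream promoter held more in all 10 untreated libraries of the other lines. After tamoxifen the order was mixed within every line. The treated Kdm2a/b-JmjC libraries held 9, 5 and 15 reads upstream, against 10, 7 and 12 downstream. Those of Kdm2a/b-CXXC held 15, 16, 8 and 9 upstream, against 6, 20, 6 and 10 downstream. In the wider lists, chosen with earlier results of these data known, 27 promoters of 23 other trophoblast genes had a median percentile of 44.5, from 98.3 at Klf5, which mESCs also use, to 8.45 at the placental gene Plac1. The 20 promoters of Hippo and Notch genes that feed into Cdx2 had a median of 63.5, from 99.85 at Nf2, an upstream Hippo component, to 6.01 at a promoter of the kinase gene Lats2. The keratins Krt19 and Krt7 lay at 35.1 and 30.3.

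Whether tamoxifen altered these promoters was asked next, with treated and untreated libraries compared within each line by limma on log2(calibrated reads + 1), a scale that understates changes at low values. To pass, a promoter needed an adjusted p (Benjamini-Hochberg, over all promoters tested) under 0.05 and a change of more than 1.4-fold. None of the 11 members passed for Kdm2a/b-JmjC (0 of 11, beside 0.0757% of all promoters). The count was also 0 of 11 for Kdm2a/b-CXXC (0%) and for Kdm2b-CXXC (0%). Of the 10 tested for Kdm2a-CXXC, 0 passed (0%), and the upstream promoter of Elf5 had too few reads there for a test. edgeR's quasi-likelihood test on the reads also called 0 members in each line, and DESeq2 called 0 in the 3 CXXC lines; it gave the members no adjusted p in Kdm2a/b-JmjC. At an unadjusted limma p under 0.05 there was 1 member for Kdm2a/b-JmjC (20.6% of all promoters), 1 for Kdm2a/b-CXXC (4.65%), 2 for Kdm2a-CXXC (8.39%) and 0 for Kdm2b-CXXC (0.669%). The study describes its libraries as biological replicates, and the labels do not say what equal replicate numbers share, so the p-values measure the spread between these libraries.

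**Figure D2:**
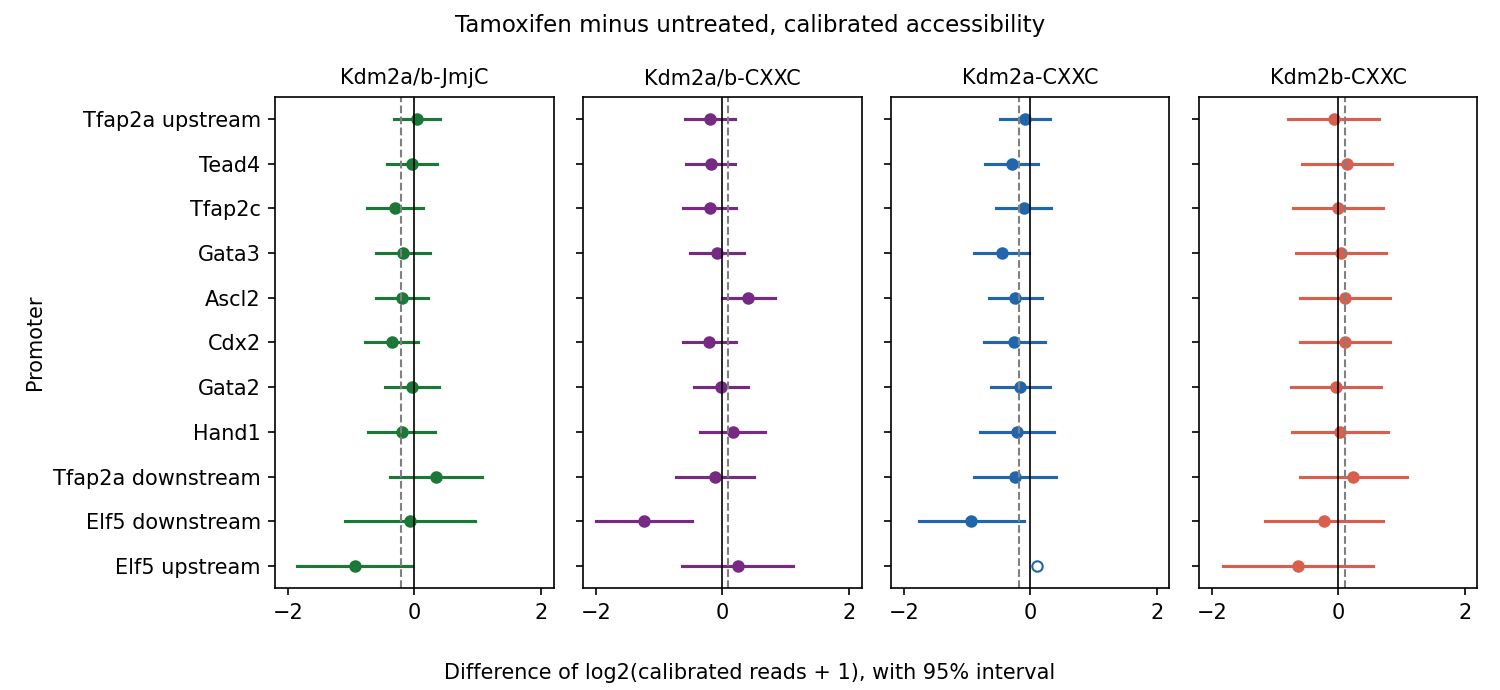
Difference of log2(calibrated reads + 1) between tamoxifen and untreated libraries (horizontal axis) for each promoter, with the 95% interval from limma, in 4 lines. The dashed line is the median of all promoters tested and the open circle a promoter without a test. Of the intervals, 4 lie to the left of 0, 2 of them at the downstream promoter of Elf5.

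The intervals bound what could have been missed. At the 7 CpG-rich promoters, the log2 differences ran from -0.36 to 0.04 for Kdm2a/b-JmjC and from -0.21 to 0.41 for Kdm2a/b-CXXC. They ran from -0.45 to -0.08 for Kdm2a-CXXC and from -0.08 to 0.13 for Kdm2b-CXXC. Each of these intervals excluded a rise or a fall of 1 on the log2 scale, the most extreme bounds being -0.89 at Gata3 in Kdm2a-CXXC and 0.85 at Tead4 in Kdm2b-CXXC. They were too wide to exclude a fold of 1.4 at most promoters: 3 of 7 intervals lay within it for Kdm2a/b-JmjC, 1 for either of Kdm2a/b-CXXC and Kdm2a-CXXC, and 0 for Kdm2b-CXXC, the line with the widest spread in calibration. With TMM scaling, which uses the reads without the spike-in, 7 of 7 lay within it for Kdm2b-CXXC and 5 for Kdm2a-CXXC, with 2 for Kdm2a/b-JmjC and 1 for Kdm2a/b-CXXC. Over all members tested, the spike-in intervals reached from -1.86 to 1.06 for Kdm2a/b-JmjC and from -1.99 to 1.12 for Kdm2a/b-CXXC. They reached from -1.76 to 0.40 for Kdm2a-CXXC and from -1.82 to 1.08 for Kdm2b-CXXC. A fall of 1 on the log2 scale was therefore not excluded in any line at every member outside the CpG-rich class. The median difference of the 11 members was -0.18 for Kdm2a/b-JmjC (-0.21 over all promoters tested) and -0.11 for Kdm2a/b-CXXC (0.09 over all). It was -0.24 for Kdm2a-CXXC (-0.18 over all) and 0.02 for Kdm2b-CXXC (0.10 over all).

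Cdx2, the caudal homeobox factor that specifies trophectoderm, held 103, 64.4 and 70.6 calibrated reads in the untreated Kdm2a/b-JmjC libraries and 53.4, 58.7 and 69.6 after tamoxifen. The groups overlapped, and the log2 difference was -0.36 ± 0.211 (SE; limma adjusted p = 0.312). In Kdm2a/b-CXXC it held 77.0, 84.7, 75.9 and 66.8 untreated and 87.8, 81.5, 59.7 and 43.3 after tamoxifen. There too the groups overlapped, at -0.21 ± 0.214 (SE; adjusted p = 0.996). In Kdm2a-CXXC and Kdm2b-CXXC the differences were -0.25 ± 0.243 and 0.11 ± 0.364 (SE). Tead4, the Hippo-responsive factor upstream of Cdx2, differed by -0.04 ± 0.203 for Kdm2a/b-JmjC and -0.19 ± 0.197 for Kdm2a/b-CXXC (SE). For Kdm2a-CXXC it differed by -0.30 ± 0.214 and for Kdm2b-CXXC by 0.13 ± 0.364 (SE).

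Elf5, the ETS factor that maintains trophoblast stem cells, gave the smallest p-value of the comparisons within lines, at its downstream promoter. In Kdm2a/b-CXXC this promoter held 19.8, 23.9, 27.2 and 17.4 calibrated reads untreated and 6.76, 17.0, 5.87 and 8.02 after tamoxifen. The highest treated library (17.0) lay just under the lowest untreated one (17.4), so the groups did not overlap. Of all promoters tested in this line, 0.597% were separated in that direction. The log2 difference was -1.24 ± 0.385 (SE; 95% interval -1.99 to -0.48), with an unadjusted p of 0.00129 and a limma adjusted p of 0.673 over the 16413 promoters. With TMM scaling, which sets the median of all promoters near 0 in place of the spike-in, the adjusted p was 0.105, the lowest among the alternatives, which ran from 0.105 to 1. The reads behind the values were 18 to 29 untreated and 6 to 20 treated. The 82 other promoters tested within 10 Mb had a median difference of 0.04.

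The downstream promoter was also lower in all 3 treated Kdm2a-CXXC libraries (8.72, 15.5 and 10.2) than in the untreated ones (22.0, 17.5 and 28.4), at -0.94 ± 0.422 (SE; limma adjusted p = 0.581). In this line 13.4% of all promoters tested were separated in that direction. In Kdm2b-CXXC it held 28.8, 17.0 and 21.9 untreated and 15.3, 21.7 and 19.6 after tamoxifen, with overlap, at -0.23 ± 0.476 (SE; 95% interval -1.16 to 0.70). In Kdm2a/b-JmjC it held 16.9, 5.44 and 9.16 untreated and 10.7, 5.48 and 12.3 after tamoxifen, at -0.07 ± 0.522 (SE). Those groups overlapped throughout.

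The upstream promoter of Elf5 showed no separation of the groups in these lines. In Kdm2a/b-JmjC it held 28.2, 10.9 and 16.5 calibrated reads untreated and 9.61, 3.92 and 15.3 after tamoxifen, with overlap, at -0.94 ± 0.464 (SE; limma adjusted p = 0.228). In Kdm2a/b-CXXC it held 4.94, 21.9, 5.62 and 9.68 untreated and 16.9, 13.6, 7.82 and 7.22 after tamoxifen, at 0.24 ± 0.448 (SE). The most reads it had in any library were 25, and its values spread over several fold within a group.

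**Figure D3:**
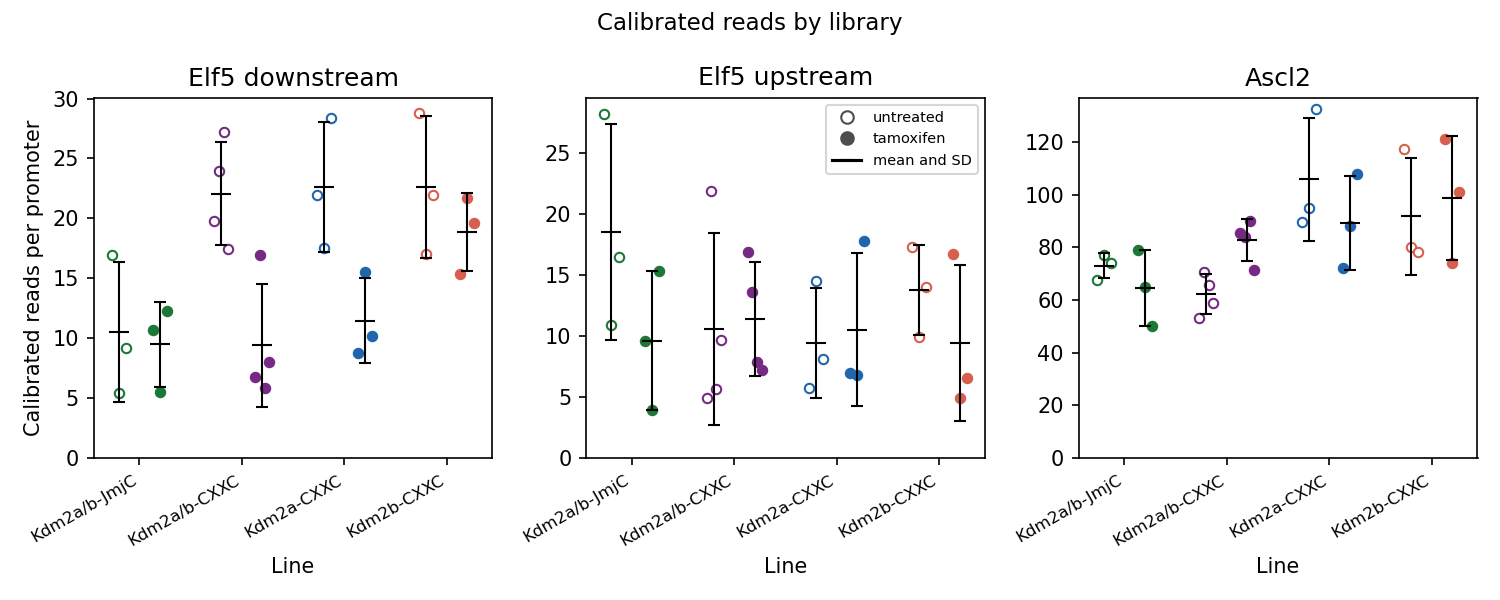
Calibrated reads per promoter (vertical axis) in each library of each line for both promoters of Elf5 and for Ascl2, untreated (open) and after tamoxifen (filled), with mean and SD. At the downstream promoter of Elf5 the treated libraries lay below the untreated ones in Kdm2a/b-CXXC and Kdm2a-CXXC, and at Ascl2 above them in Kdm2a/b-CXXC.

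Ascl2, the basic helix-loop-helix factor of the spongiotrophoblast, was separated in the other direction in Kdm2a/b-CXXC. It held 53.3, 70.7, 65.6 and 59.1 calibrated reads untreated and 85.6, 84.0, 90.0 and 71.4 after tamoxifen. The groups did not overlap (1.8% of promoters tested were separated in this direction), and the log2 difference was 0.41 ± 0.213 (SE; 95% interval -0.01 to 0.83), which did not pass (limma adjusted p = 0.996). The 9 other members overlapped between groups in this line. Ascl2 differed by -0.19 for Kdm2a/b-JmjC, by -0.24 for Kdm2a-CXXC and by 0.10 for Kdm2b-CXXC, with overlap in each.

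Among the GATA and AP-2 genes, Gata3, a target of TEAD4 in the trophectoderm, held 103, 81.5 and 104 calibrated reads untreated and 72.3, 78.4 and 59.6 after tamoxifen in Kdm2a-CXXC. The groups did not overlap, and the difference was -0.45 ± 0.222 (SE; limma adjusted p = 0.590), beside 13.4% of all promoters tested that were separated in this direction and a median over all promoters of -0.18 in this line. In Kdm2a/b-JmjC Gata3 differed by -0.18, and for Kdm2a/b-CXXC and Kdm2b-CXXC by -0.09 and 0.04. Gata2 lay between -0.16 and -0.02 over the 4 lines, Tfap2c between -0.31 and -0.01, the upstream promoter of Tfap2a between -0.20 and 0.04, and its downstream promoter between -0.25 and 0.34. Hand1, the factor of giant cells, lay between -0.21 and 0.16. Counted over the members, 0 were separated in either direction in Kdm2a/b-JmjC (23.2% of all promoters were lower and 0.908% higher without overlap) and 0 in Kdm2b-CXXC (0.446% and 2.13%). In Kdm2a-CXXC 2 were lower, Gata3 and the downstream promoter of Elf5 (13.4% of all promoters), and 0 higher (1.12%).

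The lists around the members did not pass either. Of the 27 promoters of other trophoblast genes, 22 or 23 were tested in each line and 0 passed both thresholds. In the order Kdm2a/b-JmjC, Kdm2a/b-CXXC, Kdm2a-CXXC, Kdm2b-CXXC, the median differences over the 27 were -0.21, 0.07, -0.22 and 0.09. In that order 5, 0, 1 and 0 of them had an unadjusted limma p under 0.05, beside 20.6%, 4.65%, 8.39% and 0.669% of all promoters. Of the 20 promoters of Hippo and Notch genes, 17 or 18 were tested and 0 passed, with medians of -0.15, 0.08, -0.17 and 0.10, and 1, 0, 3 and 0 had an unadjusted p under 0.05. Neither keratin promoter passed, nor any of the 9 promoters of naive pluripotency genes, whose medians were -0.19, -0.21, -0.16 and -0.06. At an unadjusted limma p under 0.05 there were 2, 2, 1 and 0 of those 9 and 1, 0, 0 and 0 of the keratin promoters.

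Whether the response to tamoxifen differed between lines was tested by interaction terms in a joint limma fit of the 26 libraries. Of the 11 members, 0 passed for Kdm2a/b-CXXC against Kdm2a/b-JmjC, against Kdm2a-CXXC or against Kdm2b-CXXC, and 0 for Kdm2b-CXXC against Kdm2a-CXXC. Likewise 0% of the 19621 promoters tested passed in each. At an unadjusted limma p under 0.05 there were 0 members in any comparison, beside 7.58%, 5.08%, 1.42% and 3.63% of all promoters in that order, and the response over all promoters differed by a median of 0.29, 0.26, -0.01 and 0.28. The 3 comparisons with Kdm2a/b-CXXC share its libraries. For Kdm2a/b-CXXC, the member with the smallest p was the downstream promoter of Elf5 against Kdm2a/b-JmjC, at a difference of responses of -1.16 (95% interval -2.35 to 0.02), and against Kdm2b-CXXC, at -1.01 (-2.19 to 0.17). Against Kdm2a-CXXC it was Ascl2, at 0.65 (-0.03 to 1.32), and between Kdm2b-CXXC and Kdm2a-CXXC it was Gata3, at 0.50 (-0.24 to 1.23). Against Kdm2a/b-JmjC, Ascl2 gave 0.60 (-0.07 to 1.28) and the upstream promoter of Elf5 1.19 (-0.16 to 2.54), opposite in sign to the downstream one.

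The untreated lines were then compared with each other, by limma on log2 CPM of the promoter reads (counts scaled to a common library size, with TMM factors), since each table was calibrated on its own. This scale shows a promoter's share of the promoter reads. Kdm2a/b-JmjC and Kdm2a/b-CXXC differed at 2 of the 11 members (8.85% of all promoters differed), Kdm2a/b-JmjC and Kdm2a-CXXC at 1 (8.68%), and Kdm2a/b-JmjC and Kdm2b-CXXC at 1 (4.61%). Kdm2a/b-CXXC and Kdm2a-CXXC differed at 3 (12.6%), Kdm2a/b-CXXC and the Kdm2b-CXXC line it was made from at 0 (0.127%, with 1 member at an unadjusted p under 0.05, beside 9.46% of all promoters), and Kdm2a-CXXC and Kdm2b-CXXC at 1 (8.32%). At an unadjusted p under 0.05 the counts were 5 (23.6%), 3 (25.9%) and 2 (18.3%) for Kdm2a/b-JmjC against those 3 lines, 4 (30.5%) for Kdm2a/b-CXXC against Kdm2a-CXXC and 3 (23.7%) for Kdm2a-CXXC against Kdm2b-CXXC. With 11 members, 1 promoter is already close to most of the shares past both thresholds. The 6 comparisons use the same 13 libraries and are not independent. As a set, the 11 members had a median difference of 0.46 for Kdm2a/b-CXXC minus Kdm2a-CXXC, with 10 above 0 and 1 below. All promoters tested had a median of -0.005 there. With Kdm2a/b-JmjC minus each other line, the member median lay between -0.295 and -0.199. Kdm2b-CXXC subtracted from Kdm2a/b-CXXC gave 0.09, and subtracted from Kdm2a-CXXC it gave -0.06.

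**Figure D4:**
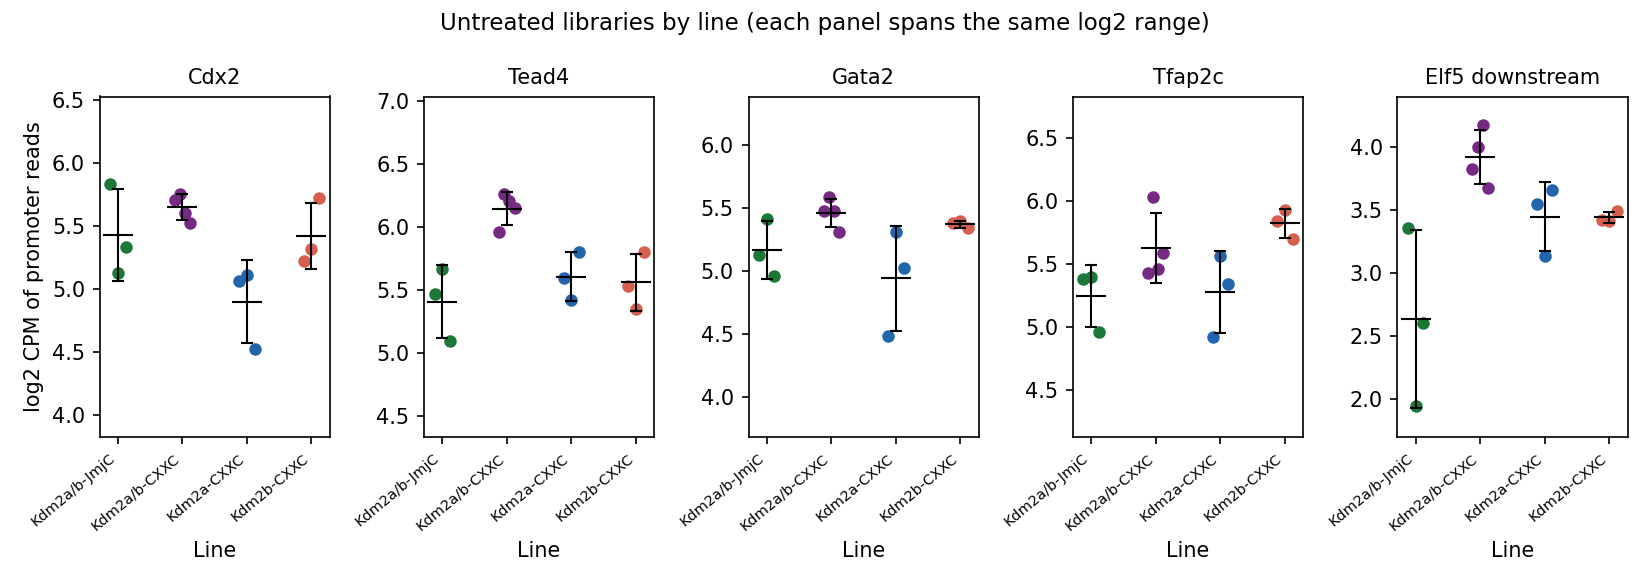
log2 CPM of promoter reads (vertical axis) in each untreated library of each line, with mean and SD, for the 5 promoters that differed between at least 1 pair of lines. Cdx2 was lowest in Kdm2a-CXXC, Tead4 highest in Kdm2a/b-CXXC, and the downstream promoter of Elf5 lowest in Kdm2a/b-JmjC.

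Cdx2 was less accessible in Kdm2a-CXXC than in Kdm2a/b-CXXC. Its log2 CPM was 5.07, 5.11 and 4.52 there, against 5.71, 5.76, 5.60 and 5.53 in Kdm2a/b-CXXC, with no overlap and a difference of 0.75 ± 0.175 (SE; limma adjusted p = 0.00063). This call was kept in every alternative, at differences of 0.56 to 0.85 and adjusted p-values up to 0.0371. Against Kdm2a/b-JmjC (5.84, 5.13 and 5.33) the difference was 0.53 ± 0.187 (SE; limma adjusted p = 0.0441), and it was lost without Kdm2a/b-JmjC replicate 1 (0.34, adjusted p = 0.348), without Kdm2a/b-JmjC replicate 3 (0.58, adjusted p = 0.0522) or without Kdm2a-CXXC replicate 3 (0.34, adjusted p = 0.336). The 188 other promoters within 10 Mb of Cdx2 had median differences of 0.03 and 0.02 in these comparisons. The neighbourhood thus did not share the differences at Cdx2. The median of the 11 members was 0.46 in the first comparison, in the same direction as Cdx2. In the second it was -0.20, in the opposite direction. Kdm2b-CXXC held 5.23, 5.32 and 5.72 and differed from Kdm2a-CXXC by 0.52 in size, without passing (limma adjusted p = 0.0536). It passed with scaling by total promoter reads (adjusted p = 0.0289), without Kdm2a-CXXC replicate 2 (adjusted p = 0.0447) and without Kdm2b-CXXC replicate 1 (adjusted p = 0.0471).

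Tead4 was higher in Kdm2a/b-CXXC than in Kdm2a-CXXC or Kdm2a/b-JmjC, and so was the median promoter of the stretch of chromosome 6 around it. Its log2 CPM was 5.96, 6.26, 6.21 and 6.15 in Kdm2a/b-CXXC, and for Kdm2a/b-JmjC it was 5.47, 5.66 and 5.10. For Kdm2a-CXXC it was 5.60, 5.42 and 5.80, and for Kdm2b-CXXC 5.53, 5.35 and 5.80. No library of another line reached those of Kdm2a/b-CXXC. The difference was 0.74 (95% interval 0.43 to 1.04; limma adjusted p = 0.000166) from Kdm2a/b-JmjC and 0.54 (0.23 to 0.84; limma adjusted p = 0.00655) from Kdm2a-CXXC. It was 0.58 (0.28 to 0.89) from Kdm2b-CXXC, which did not pass (limma adjusted p = 0.0697). The call against Kdm2a-CXXC was lost without its replicate 2 (0.44, adjusted p = 0.0755).

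The 207 other promoters within 10 Mb of Tead4 had a median difference of 0.58 from Kdm2a/b-JmjC (middle 50% from 0.42 to 0.74), 0.61 from Kdm2a-CXXC (0.43 to 0.84) and 0.33 from Kdm2b-CXXC (0.16 to 0.48), and 196, 198 and 190 of them lay above 0. Tead4 exceeded the median of its neighbours by 0.16 and 0.25 in the first and the third comparison and lay 0.07 below it in the other (-0.07). Higher values began between 20 and 10 Mb on the side of lower coordinates, where 92 promoters had a median of 0.54 from Kdm2a-CXXC, and had fallen to 0.19 between 10 and 20 Mb on the other side. Farther than 20 Mb away, the medians of bins of at least 20 promoters lay between -0.08 and 0.15 in all 3 comparisons. The same 207 neighbours had a median of -0.28 for Kdm2a/b-JmjC minus Kdm2b-CXXC and -0.26 for Kdm2a-CXXC minus Kdm2b-CXXC. The stretch was thus also higher in Kdm2b-CXXC than in those lines, though less so than in Kdm2a/b-CXXC. Tead4 itself gave -0.15 and 0.05 in these comparisons and passed in neither. Gata2, 40.1 Mb from Tead4 on the same chromosome, lay outside the stretch. The neighbourhood was examined after the difference at Tead4 had been seen, and the copy number of the region was not tested.

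**Figure D5:**
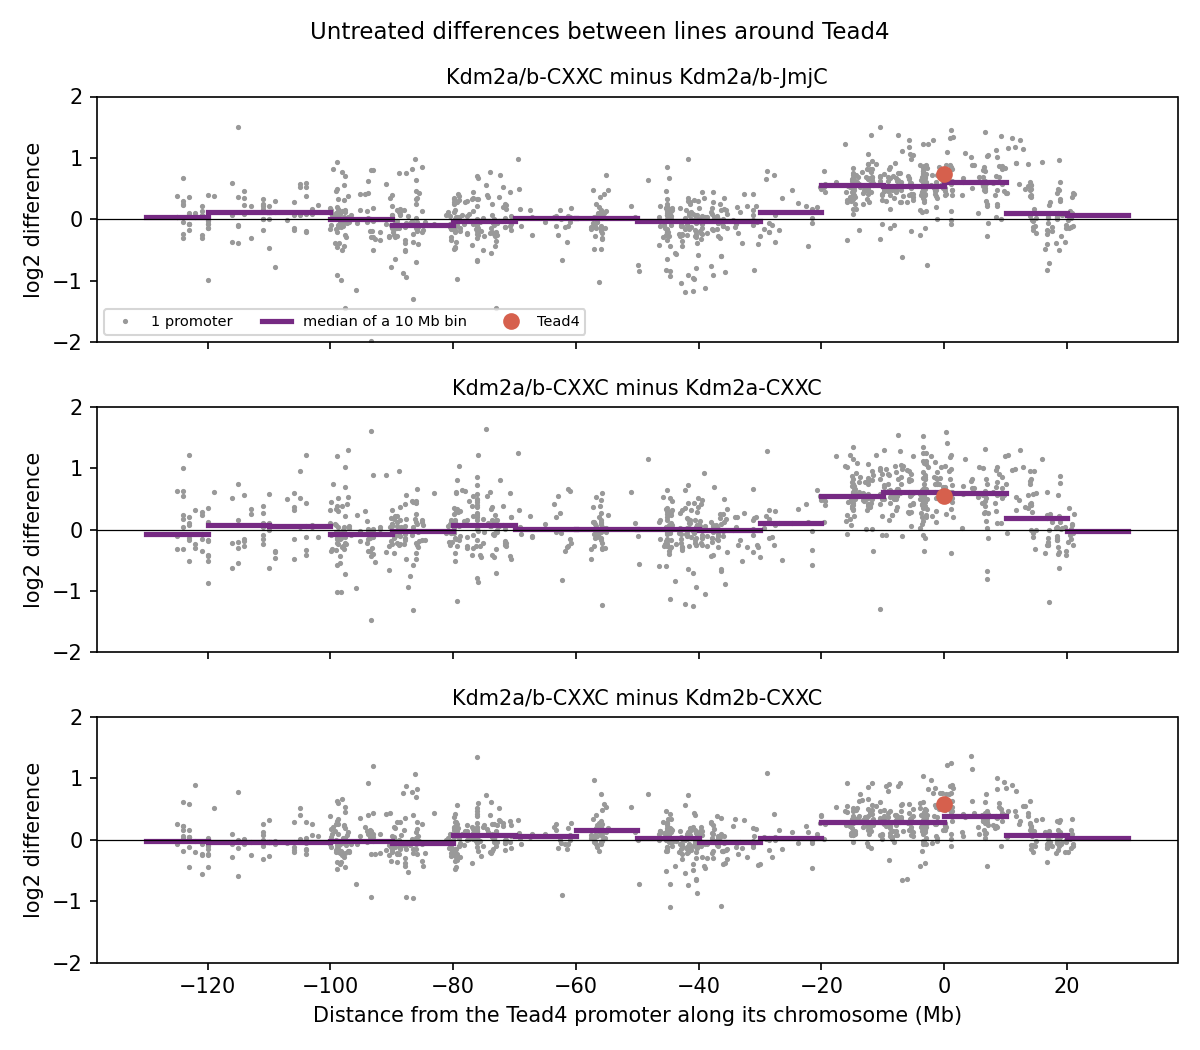
log2 difference in CPM between untreated Kdm2a/b-CXXC and each other line (vertical axis) for promoters along the chromosome of Tead4, by distance from it in Mb (grey points), with medians of 10 Mb bins (bars) and Tead4 (large point). The bins from 20 Mb before to 10 Mb after Tead4 stand above 0 in each panel, at 0.54 to 0.62 from Kdm2a-CXXC, and 2 points fall outside the axes.

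Gata2, a GATA factor shared by trophoblast and blood, differed between Kdm2a/b-CXXC (5.47, 5.58, 5.48 and 5.31) and Kdm2a-CXXC (4.49, 5.31 and 5.03) by 0.52 ± 0.179 (SE; limma adjusted p = 0.0273), while 178 promoters within 10 Mb had a median of -0.00. The groups overlapped at 1 value, and the call rested on the lowest library: without Kdm2a-CXXC replicate 1 the difference was 0.29 (adjusted p = 0.364). It was also lost without Kdm2a-CXXC replicate 3 (0.56, adjusted p = 0.05) and without Kdm2a/b-CXXC replicate 2 (0.48, adjusted p = 0.0694). The 11 members had a median of 0.46 in this comparison, so the difference at Gata2 was close to that of the set.

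Tfap2c had its highest line mean in Kdm2b-CXXC (5.84, 5.93 and 5.70), above all libraries of Kdm2a/b-JmjC (5.38, 5.40 and 4.96) and of Kdm2a-CXXC (4.92, 5.56 and 5.34). The differences were -0.58 ± 0.179 and -0.55 ± 0.179 (SE; those lines minus Kdm2b-CXXC; limma adjusted p = 0.0308 and 0.0301). Kdm2a/b-CXXC overlapped with Kdm2b-CXXC, at 5.43, 6.03, 5.46 and 5.59, and its replicate 2 lay above every Kdm2b-CXXC library. Kdm2a/b-CXXC minus Kdm2b-CXXC was -0.20, which did not pass (limma adjusted p = 0.770). Both calls depended on single libraries. The first was lost without Kdm2a/b-JmjC replicate 3 (-0.43, adjusted p = 0.211) or without replicate 1, 2 or 3 of Kdm2b-CXXC (adjusted p = 0.0992, 0.161 and 0.0543). The second was lost without replicate 1 or 3 of Kdm2a-CXXC (adjusted p = 0.283 and 0.0599) or replicate 1 or 2 of Kdm2b-CXXC (adjusted p = 0.0862 and 0.141). The 246 promoters within 10 Mb had medians of 0.01 and -0.03.

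The downstream promoter of Elf5 was lower in Kdm2a/b-JmjC (3.35, 1.94 and 2.60) than in Kdm2a/b-CXXC (3.82, 4.00, 4.17 and 3.67), with no overlap, at -1.28 ± 0.324 (SE; limma adjusted p = 0.00217), and was lost as a call without Kdm2a/b-JmjC replicate 2 (-0.94, adjusted p = 0.0693). Against Kdm2a-CXXC (3.55, 3.13 and 3.66) and Kdm2b-CXXC (3.41, 3.41 and 3.49) it differed by -0.81 in each case and did not pass (limma adjusted p = 0.109 and 0.168). Without Kdm2a/b-JmjC replicate 1 both passed, at -1.17 (adjusted p = 0.0297 and 0.0483). The 97 promoters tested within 10 Mb had a median of -0.07 in the first comparison.

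Between the untreated lines, Gata3, Hand1, Ascl2 and both promoters of Tfap2a did not pass in any of the 6 comparisons. The upstream promoter of Elf5 did not pass either, its highest difference being 1.07 ± 0.433 (SE) between Kdm2a/b-JmjC and Kdm2a-CXXC (limma adjusted p = 0.0867). Without Kdm2a/b-JmjC replicate 2 that difference was 1.39 (adjusted p = 0.0479). The line means of Ascl2, from 5.34 to 5.57 log2 CPM, lay closest together among the 11 promoters.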

How the data were processed

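Values are those of 26 ATAC libraries; the 26 input libraries of genomic DNA were not used here. The authors aligned reads with Bowtie 2 to joined mm10 and dm6 genomes, removed multi-mapping, duplicate and mitochondrial reads, and counted mouse reads over promoter intervals. The deposited library columns hold the signal of each promoter, its reads divided by a spike-in size factor that the authors corrected by the ratio of fly to mouse reads in matched input DNA. Whole reads were recovered from the steps between values (100% whole within 0.01) and served for filtering, TMM scaling and read-based tests. The deposited mean, log2 fold change, standard error, statistic and p-value columns were not used. The members and gene lists were chosen with earlier results of these data known.

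Lines were assigned from the labels. Within each line, limma 3.58.1 with a mean-variance trend (R 4.3.3) was fitted to log2(calibrated reads + 1) after filterByExpr of edgeR 4.0.16, with Benjamini-Hochberg adjustment over all promoters tested. Untreated lines were compared on log2 CPM (prior count 2). All 11 member promoters were named; of the lists, up to 3 promoters past both thresholds in a line and the highest and lowest by untreated percentile. Alternatives were TMM scaling, a pseudocount of 5, no filter, edgeR, DESeq2 1.42.0, a replicate block and leaving out each library; between untreated lines, scaling by total reads, a prior count of 0.5 and no filter. Base composition was available for 20630 promoters, and 99.1% of identifiers had a symbol. Scripts were tested on simulated data.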

Additional observations from a re-analysis of the deposited data

Results flagged for a closer look

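At 2 of 22 sets of 4 Kdm2a/b-CXXC libraries, 1 library stood apart by Dixon's test, which marks about 1 set in 20 by chance. Tfap2c held 103 calibrated reads in untreated replicate 2, against 63.2, 68.4 and 69.7 in the other 3. Hand1 held 48.4 calibrated reads in untreated replicate 1, against 30, 31.9 and 32.9. Groups of 3 libraries were not tested in this way.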

How the results depend on the processing

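The count of member promoters past both thresholds was 0 in each line under every alternative that gave one, and 0 in each comparison of responses. Over all promoters, the replicate block raised the calls in the response of Kdm2a/b-CXXC from 0 to 29 when set against Kdm2a/b-JmjC, to 6 when set against Kdm2a-CXXC and to 2 when set against Kdm2b-CXXC. In that order it moved members at an unadjusted p under 0.05 to 2 (18.7% of all), 1 (15.2%) and 0 (2.78%). With TMM scaling 3 members (7.88% of all) reached it against Kdm2a/b-JmjC. Over all promoters, the count in Kdm2a/b-JmjC was 13 and became 0 with TMM scaling, 71 with a pseudocount of 5, 114 with edgeR, 62 with a replicate block and 0 to 607 when 1 library was left out. In Kdm2a/b-CXXC it went from 0 to 17 with TMM scaling and 0 to 8 without 1 library, in Kdm2a-CXXC to 188 with the replicate block and 0 to 43 without 1 library, and in Kdm2b-CXXC to 1 with TMM scaling and 5 with the replicate block. Over promoters, the 13 correlations between same-numbered libraries lay between -0.009 and 0.0725, and 8 of 13 were the best match of their number. The main fit did not take the number as pairing, and these values do not decide whether it is. These correlations do not see a shift common to all promoters. Calibrated totals had the same order by number untreated and treated, not in the lines of both genes, but for Kdm2a-CXXC (2.13, 2.30 and 2.51 M untreated, 1.76, 2.04 and 2.33 M treated) and for Kdm2b-CXXC (2.96, 1.75 and 2.12, then 3.19, 1.98 and 2.11 M). With the block, 7 of 7 CpG-rich intervals lay within 1.4-fold in Kdm2b-CXXC, from 0 without it, and 2 in Kdm2a-CXXC, from 1. TMM scaling moved the median of all promoters in Kdm2a/b-JmjC from -0.21 to -0.00 and that of the members to 0.027. It reversed differences in Kdm2a/b-JmjC at Elf5 downstream (0.11), Gata2 (0.17), Gata3 (0.027), Hand1 (0.0015), Tead4 (0.17) and Ascl2 (0.013), in Kdm2a-CXXC at Tfap2c (0.072), Tfap2a upstream (0.092) and Gata2 (0.013), and in Kdm2b-CXXC at Gata3 (-0.056) and Hand1 (-0.0765). None of these passed a threshold on either scale. The cause was not tested.

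Leaving out 1 library turned the sign of further small differences. In Kdm2a/b-JmjC the ranges were -0.43 to 0.31 at Elf5 downstream, -0.17 to 0.16 at Tfap2a upstream, -0.16 to 0.11 at Gata2 and -0.21 to 0.11 at Tead4. In Kdm2a/b-CXXC they were -0.0023 to 0.65 at Elf5 upstream, -0.40 to 0.17 at Tfap2c, -0.15 to 0.093 at Gata2, -0.23 to 0.023 at Gata3 and -0.018 to 0.31 at Hand1. In Kdm2a-CXXC they were -0.32 to 0.43 at Elf5 upstream, -0.35 to 0.075 at Tfap2c and -0.46 to 0.027 at Gata2. In Kdm2b-CXXC they were -0.12 to 0.32 at Cdx2, -0.18 to 0.20 at Tfap2c, -0.34 to 0.14 at Tfap2a upstream, -0.083 to 0.64 at Tfap2a downstream, -0.20 to 0.17 at Gata2, -0.069 to 0.12 at Gata3, -0.35 to 0.36 at Hand1, -0.14 to 0.32 at Tead4 and -0.0604 to 0.29 at Ascl2. The difference at Elf5 downstream in Kdm2a/b-CXXC stayed between -1.54 and -0.95 under every alternative.

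Between untreated lines, the count of members that differed ranged from 1 to 2 (Kdm2a/b-JmjC against Kdm2a/b-CXXC), 0 to 2 (against Kdm2a-CXXC), 0 to 2 (against Kdm2b-CXXC), 2 to 3 (Kdm2a/b-CXXC against Kdm2a-CXXC) and 0 to 2 (Kdm2a-CXXC against Kdm2b-CXXC) when 1 library was left out; in the last it was 2 with scaling by total promoter reads. Low read numbers at Elf5 limit what could be seen there.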
